A study of Rattus norvegicus with 8 samples.

Results

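The core proteins that carry heparan sulfate were followed at the RNA level in the outflow veins of rat arteriovenous fistulas (AVF). The group holds 10 genes, namely the glypicans Gpc1, Gpc3, Gpc4 and Gpc6, the syndecans Sdc1, Sdc2, Sdc3 and Sdc4, and the basement membrane proteoglycans Hspg2 and Agrn, out of 32623 genes in the count files. They were taken by gene name, and 9 of the 10 had a row under that name. Hspg2 had none, but RefSeq gives AABR07073181.1 as an older name of Hspg2 and of no other gene, and the row of that name (ENSRNOG00000021437) was used for it. All 10 genes passed the filter on low counts, in each group taken alone as well, and belong to the 11682 genes tested.

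In each animal the epigastric vein had been joined to the femoral artery, and the vein next to the junction was wrapped in an electrospun nanofiber scaffold. The BAPN group (4 Sprague Dawley rats, 3 females and 1 male) received scaffolds loaded with β-aminopropionitrile, an inhibitor of lysyl oxidases, the enzymes that crosslink collagen and elastin. The Vehicle group (4 rats, 2 females and 2 males) received scaffolds without the drug, so both groups carried an AVF and a scaffold, and veins without a scaffold were not analysed here. Veins were collected at 21 days and each library holds RNA from the outflow vein of 1 rat. How much of the vein was used and the ages of the rats are not given in the sources used here.

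Heparan sulfate is a sulfated sugar chain built on a small set of core proteins. The chains bind growth factors, morphogens, chemokines and matrix proteins and act as co-receptors or as a store of ligand. Glypicans are held on the outer face of the membrane by a lipid anchor, syndecans span the membrane, and perlecan and agrin are large secreted proteins of the basement membrane. In the vessel wall they are known for regulating smooth muscle growth, endothelial sensing of flow and the filtering of lipoproteins and growth factors.

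Reads counted on genes numbered 45039451 to 52241007 per library with BAPN and 19548203 to 22442050 with vehicle, so depth separated the groups and cannot be told apart from treatment; thinning every library to 19548203 counts changed no call among the 10 genes. Values are CPM, read counts scaled to the library total after TMM correction, given as mean ± SD over 4 rats. Log2 fold changes (BAPN over vehicle) come from edgeR's quasi-likelihood test, with a standard error (SE) from limma-voom and a Benjamini-Hochberg FDR over all tested genes, called below 0.05. Smooth muscle and endothelial markers were detected in every library. No transcript lengths were used, so shares of reads and ranks by CPM given below follow transcript length too and do not order the genes by their RNA levels.

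2 of the 10 genes were called, both glypicans and both lower with BAPN: Gpc3 and Gpc6, with mean levels 5.27 and 2.74 times as high in vehicle veins. Among all tested genes, 9.25% were called lower and 7.5% higher (16.8% in all). DESeq2 called Gpc3, Gpc6 and Hspg2, all lower, where it called 15.1% of genes lower and 27.4% in all. No member was called higher by edgeR or DESeq2, and none that was higher had an unadjusted p below 0.05. In edgeR 3 of the 10 members had such a p, as did 4184 of the 11682 tested genes. That is the background for every such count below. The log2 fold change was below 0 for 8 of the 10 genes, against 48.4% of all tested genes, and its median was -0.46 against 0.02. These summaries rest in part on the library Vehicle 4. Without it Sdc2 turned to 0.21, and Gpc1, Gpc4, Agrn and Hspg2 moved to -0.19, -0.15, -0.13 and -1.23. Gpc3 and Sdc3 moved the other way, to -2.71 and -0.35. By subfamily the median was -1.005 for the 4 glypicans, 0.04 for the 4 syndecans and -1.19 for Hspg2 and Agrn. No gene lay near the last of these, since Hspg2 was at -2.01 and Agrn at -0.37. The glypican median fell between the called Gpc3 (-2.40) and Gpc6 (-1.45) and the uncalled Gpc1 (-0.55) and Gpc4 (-0.56). The groups did not overlap for 2 genes, the same Gpc3 and Gpc6, while 11.9% of tested genes had all BAPN libraries below all vehicle libraries, 12.7% had them above, and 24.7% were separate either way.

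**Figure D1:**
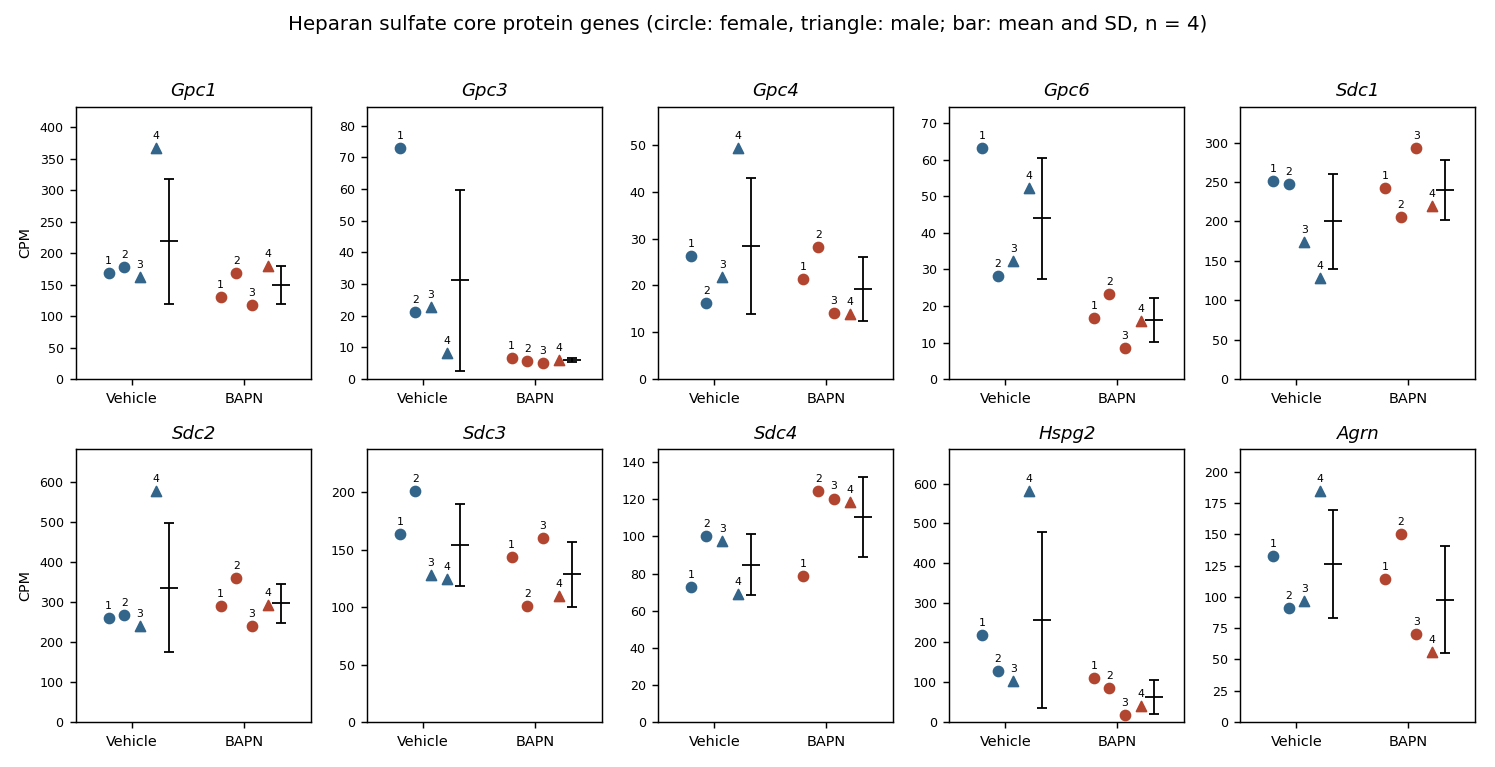
Expression of the 10 genes in CPM (vertical axis, linear from 0) in each of the 4 vehicle and 4 BAPN libraries, numbered by replicate, with circles for females, triangles for males and a bar for mean and SD. The Gpc3 and Gpc6 groups are separate, and in Gpc1, Gpc4, Sdc2, Hspg2 and Agrn the highest vehicle value is Vehicle 4.

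Gpc3 (ENSRNOG00000060179) encodes a glypican that restrains tissue growth and binds Wnt and Hedgehog ligands. In BAPN 1 to 4 it was at 6.72, 5.56, 5.21 and 6.18 CPM. In Vehicle 1 to 4 it was at 72.9, 21.1, 22.7 and 8.26 CPM. The BAPN veins lay close together (highest 1.29 times the lowest), while the vehicle veins spread over 8.82-fold and the lowest of them, Vehicle 4, was just above the BAPN range. The means were 5.92 ± 0.667 and 31.2 ± 28.5 CPM (SD, n = 4 per group). On the log2 scale the difference was -2.40 (SE 0.60, edgeR FDR 0.0244, DESeq2 FDR 7.37e-05). Only 0.077% of tested genes had a lower log2 fold change. Vehicle 1 carried much of the size, and without it the value was -1.55 with the call kept (FDR 0.0449). Omitting BAPN 2, BAPN 3 or BAPN 4 ended the call, at an FDR of 0.0507, 0.0686 and 0.0562. Among females alone, 3 against 2, it was -3.01 (FDR 0.0494).

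Gpc4 (ENSRNOG00000002413), a broadly expressed glypican that binds growth factors, lies near Gpc3 on the X chromosome of assembly GRCr8, with 2 protein-coding genes listed between them. Its levels were 21.3, 28.1, 14.05 and 13.8 CPM in BAPN 1 to 4 and 26.4, 16.3, 21.8 and 49.3 CPM in Vehicle 1 to 4. Here the groups overlapped, and Vehicle 4, the lowest vehicle vein for Gpc3, was the highest for Gpc4. The log2 fold change was -0.56 (SE 0.34, FDR 0.284), -0.15 without Vehicle 4 and -0.011 among females alone. The promoters of this nearby pair are shown because only Gpc3 was called; that the 2 changes differ was not tested. Each is the 250 bases before the RefSeq start in GRCr8, read 5′ to 3′ on the gene's strand, for Gpc3 chrX:137157599-137157848, minus strand, and for Gpc4 chrX:136676058-136676307, minus strand. Capitals mark the GC box GGGCGG, a binding motif of Sp family factors, on either strand (CCGCCC on the other).
Gpc3 promoter: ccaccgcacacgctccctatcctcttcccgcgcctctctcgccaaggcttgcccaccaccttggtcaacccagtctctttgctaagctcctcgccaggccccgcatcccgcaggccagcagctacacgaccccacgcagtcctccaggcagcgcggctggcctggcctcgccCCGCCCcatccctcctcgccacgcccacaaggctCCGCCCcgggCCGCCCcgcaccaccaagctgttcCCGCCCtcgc
Gpc4 promoter: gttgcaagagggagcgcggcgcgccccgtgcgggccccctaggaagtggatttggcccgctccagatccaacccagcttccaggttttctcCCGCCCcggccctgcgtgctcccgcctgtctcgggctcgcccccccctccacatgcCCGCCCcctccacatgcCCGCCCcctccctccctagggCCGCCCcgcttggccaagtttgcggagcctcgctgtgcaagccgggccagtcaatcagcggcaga

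Gpc6 (ENSRNOG00000046660) encodes a glypican with a role in the growth of skeletal elements. It was at 16.6, 23.2, 8.49 and 15.9 CPM in BAPN 1 to 4. In Vehicle 1 to 4 it was at 63.1, 28.2, 32.4 and 52.17 CPM. Every BAPN vein was below every vehicle vein, with BAPN 3 the lowest of all, and the spread was of like size in both groups (2.73-fold with BAPN and 2.24-fold with vehicle between lowest and highest). The means were 16.1 ± 6.02 and 44.0 ± 16.5 CPM (SD, n = 4 per group). On the log2 scale BAPN differed from vehicle by -1.45 (SE 0.34, edgeR FDR 0.0244, DESeq2 FDR 0.000407). An exact two-sided permutation test of log2 CPM gave p = 0.0286 for Gpc6 and for Gpc3, the smallest that 4 rats against 4 allow. With each library left out the value stayed between -1.69 and -1.23, although omitting BAPN 3, BAPN 4, Vehicle 1 or Vehicle 4 ended the call, at an FDR of 0.0506, 0.0571, 0.0671 and 0.0501. Among females alone it was -1.503 (FDR 0.125). In this bulk tissue, fewer cells that express a gene and less RNA per cell cannot be told apart.

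Tested genes outside the members were compared by log2 CPM over the 8 libraries, leaving out clone or locus names and repeated symbols. Those that followed Gpc6 most closely were Abca9 (Pearson r = 0.995), a lipid transporter of the ABC family, and Psd3 (r = 0.988). For Gpc3 they were Dmtn (r = 0.962), an actin-binding protein, and She (r = 0.956). All 4 had lower mean expression with BAPN, with log2 fold changes of -1.66 for Abca9, -1.08 for Psd3, -1.11 for Dmtn and -0.97 for She. These correlations describe 8 libraries that include the difference between the groups, and they were picked as the highest among the genes compared.

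Gpc1 (ENSRNOG00000049437) encodes a glypican of endothelium and smooth muscle that is known as a sensor of flow and a co-receptor for fibroblast growth factors. It was at 130.3, 169, 117 and 179.9 CPM in BAPN 1 to 4 and at 169, 178, 161 and 367 CPM in Vehicle 1 to 4. BAPN 1 and BAPN 3 were below every vehicle vein, BAPN 2 and BAPN 4 were within the vehicle range, and Vehicle 4 was far above all others. The log2 fold change was -0.55 (SE 0.27, FDR 0.185) and -0.19 without Vehicle 4. As a share of all reads on these 4 glypican genes, Gpc6 took 5.86% to 10.3% with BAPN and 10.95% to 19.1% with vehicle. Gpc3 took 2.46% to 3.84% and 1.74% to 22.0%, and Gpc1 took 74.5% to 83.4% and 50.9% to 77.0%. The Gpc6 share alone did not overlap between the groups; shares were not tested.

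None of the 4 syndecans was called by edgeR or DESeq2, and none had an unadjusted p below 0.05, beside 4184 of the 11682 tested genes. Sdc4 (ENSRNOG00000014297), a co-receptor with integrins in focal adhesions, was at 78.7, 125, 120.5 and 119 CPM in BAPN 1 to 4 and at 72.7, 100.4, 97.4 and 69.0 CPM in Vehicle 1 to 4. In 3 of the 4 BAPN veins it was above every vehicle vein, and BAPN 1 lay within the vehicle range. The means were 111 ± 21.4 and 84.9 ± 16.3 CPM (SD, n = 4 per group). The log2 fold change was 0.38 (SE 0.19, FDR 0.165). Without BAPN 1 it was 0.51 (FDR 0.0653).

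Sdc1 (ENSRNOG00000059947), the syndecan of epithelia and plasma cells that is also induced in injured vessels, was at 242, 206, 293 and 219 CPM in BAPN 1 to 4 and at 251.6, 248, 173 and 128 CPM in Vehicle 1 to 4. The vehicle females were within the BAPN range and the vehicle males below it. The log2 fold change was 0.26 (SE 0.24, FDR 0.42) and, among females alone, -0.015. The 8 plasma cell markers (6 tested, 1 called higher by edgeR and 2 by DESeq2) summed to 253 to 444 CPM with BAPN and 222 to 258 CPM with vehicle. The called marker, Mzb1, a chaperone of antibody secretion, averaged 21.1 CPM with BAPN and 0.866 CPM with vehicle, with overlapping groups. It passed the filter on low counts only through the BAPN group (mean size-scaled count 669, against 27.4 with vehicle), so nothing is read from its call. Jchain, which passed the filter in both groups, averaged 106 CPM with BAPN and 17.0 CPM with vehicle, with overlapping groups. It was not called by edgeR (log2 fold change 2.64, FDR 0.0561). The highest mean CPM of the list was that of Xbp1, at 134.5 with BAPN and 120.8 with vehicle. Of the 6 tested markers, 1 had a log2 fold change below 0. Tnfrsf17 was at 0 in some libraries. The part of these cells in the Sdc1 values was not tested.

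Sdc2 (ENSRNOG00000004936), the syndecan typical of mesenchymal cells, was at 290.0, 361, 241 and 292 CPM in BAPN 1 to 4. In Vehicle 1 to 4 it was at 259, 267, 239.6 and 577 CPM. Vehicle 4 stood apart, and the direction turned on it: the log2 fold change was -0.18 (SE 0.29, FDR 0.673) with all libraries and 0.21 without Vehicle 4. The group medians, 291 CPM with BAPN and 263 CPM with vehicle, were ordered against the means of 296 and 336 CPM. Sdc3 (ENSRNOG00000011927), best known from nerve and muscle, was at 101 to 161 CPM with BAPN (median 127) and 124 to 201 CPM with vehicle (median 146), and its log2 fold change was -0.26 (SE 0.20, FDR 0.378), or -0.10 without Vehicle 2.

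The 95% confidence intervals of the log2 fold change from limma-voom bound what these libraries leave possible for the syndecans. They ran from -0.23 to 0.84 for Sdc1, from -0.74 to 0.54 for Sdc2, from -0.71 to 0.20 for Sdc3 and from -0.04 to 0.80 for Sdc4. A change of the size of that of Gpc6 is outside all 4 intervals, whereas smaller changes in either direction are within them for Sdc1, Sdc2 and Sdc3.

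Hspg2 encodes perlecan, the large proteoglycan of vascular basement membranes that binds fibroblast growth factors and holds smooth muscle growth in check. It was at 112, 85.9, 17.5 and 39.9 CPM in BAPN 1 to 4. In Vehicle 1 to 4 it was at 219, 127, 102 and 582 CPM. A single pair broke the separation, since BAPN 1 was above Vehicle 3. The spread was wide in both groups (6.38-fold with BAPN and 5.69-fold with vehicle), with means of 63.7 ± 42.8 and 258 ± 222 CPM (SD, n = 4 per group). The fitted log2 fold change was -2.01 (SE 0.66), lower than in all but 0.368% of tested genes, with an edgeR FDR of 0.0659, a DESeq2 FDR of 0.0401 and p = 0.0571 in the exact two-sided permutation test. It was -1.23 without Vehicle 4 (FDR 0.16), -1.27 among females alone (FDR 0.272), and edgeR called it in none of the fits that left out 1 library.

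Agrn (ENSRNOG00000020205) encodes agrin, a basement membrane proteoglycan that clusters receptors at nerve-muscle junctions and binds dystroglycan in other tissues. It was at 114, 149.95, 70.6 and 55.5 CPM in BAPN 1 to 4 and at 133, 91.0, 96.5 and 185 CPM in Vehicle 1 to 4. The groups overlapped broadly, and the log2 fold change was -0.37 (SE 0.33, FDR 0.441), or -0.13 without Vehicle 4 and -0.0024 among females alone. Of the reads on Hspg2 and Agrn together, Hspg2 took 49.4%, 36.4%, 19.9% and 41.8% in the BAPN veins, in replicate order, and 62.2%, 58.3%, 51.4% and 75.9% in the vehicle veins. So the mixture of the 2 basement membrane transcripts held less Hspg2 in each BAPN vein than in any vehicle vein, a comparison that was not tested. The 250 bases before each start are shown for this pair, for Hspg2 chr5:154960596-154960845, plus strand, and for Agrn chr5:172052826-172053075, minus strand (GRCr8), with GC boxes in capitals as above.
Hspg2 promoter: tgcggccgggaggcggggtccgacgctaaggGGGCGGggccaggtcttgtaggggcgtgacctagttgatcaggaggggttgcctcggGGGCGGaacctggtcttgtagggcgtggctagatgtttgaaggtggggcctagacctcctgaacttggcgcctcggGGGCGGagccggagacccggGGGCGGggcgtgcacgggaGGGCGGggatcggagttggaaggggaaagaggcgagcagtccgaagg
Agrn promoter: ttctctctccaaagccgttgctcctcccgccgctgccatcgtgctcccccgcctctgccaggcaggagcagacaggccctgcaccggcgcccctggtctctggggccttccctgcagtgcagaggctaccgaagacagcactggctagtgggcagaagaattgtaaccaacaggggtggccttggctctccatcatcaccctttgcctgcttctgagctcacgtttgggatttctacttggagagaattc

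RefSeq promoters were at hand for 7 of the 10 genes, and 6 of them held at least 1 GC box. There were 4 matches in Gpc3, 4 in Gpc4, 3 in Sdc1, 4 in Sdc3, 5 in Sdc4 and 5 in Hspg2, where matches may overlap, and none in Agrn. Of all 33469 promoters of this length, 30.5% held the motif. The promoters of the 7 genes had a GC content of 60.4% to 80.0%, against a median of 51.2% over all. None of the 7 held any of the other motifs searched on both strands: the TATA box TATAAA (in 12.9% of all promoters), the AP-1 motif TGANTCA (6.34%), the TEAD motif GGAATG (12.1%), the SMAD motif GTCTAGAC (0.173%) and the E-box CACGTG (5.59%). Of the called members only Gpc3 had a promoter at hand, and Gpc6 had none, so called and uncalled genes cannot be compared. The GC box occurred in the promoter of Gpc3 and in those of uncalled genes.

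The members did not vary together within the vehicle group, and Vehicle 4, a male, stood at an end of that group for 9 of the 10 genes. It was highest for Gpc1, Gpc4, Sdc2, Hspg2 and Agrn and lowest for Gpc3, Sdc1, Sdc3 and Sdc4. Over all tested genes, Vehicle 4 was at an end of its group in 59.8%. The summed level of 8 fibroblast markers, mostly Col1a1 and Col3a1, was 95111 CPM in Vehicle 4 and 28657 to 57306 CPM in the other vehicle libraries. Vehicle 4 also had the highest smooth muscle sum of its group (6090 CPM). Its adipocyte (489 CPM), macrophage (2195 CPM), T cell (301 CPM) and keratinocyte (9.79 CPM) sums were the lowest. Its endothelial, plasma cell and skeletal muscle sums were at neither end. The part of these cells was not tested. In the BAPN group, BAPN 3 was the lowest for 5 genes, namely Gpc1, Gpc3, Gpc6, Sdc2 and Hspg2 (28.6% of all tested genes were lowest there), and BAPN 2 was the highest for 5.

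**Figure D2:**
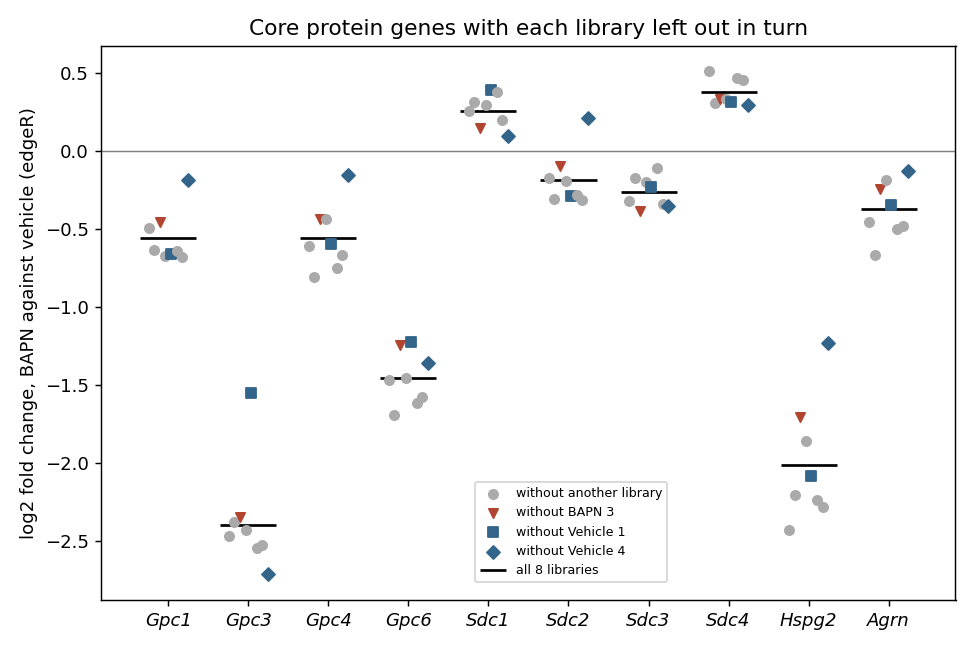
Log2 fold change of BAPN against vehicle (vertical axis, edgeR) for each of the 10 genes, with all 8 libraries (line) and with each library left out (points; diamonds without Vehicle 4, squares without Vehicle 1, triangles without BAPN 3). Without Vehicle 4 the values of Gpc1, Gpc4 and Agrn move to between -0.19 and -0.13, that of Hspg2 to -1.23, and that of Sdc2 to 0.21, while Gpc3 moves up to -1.55 without Vehicle 1.

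The wider heparan sulfate pathway was followed through 71 further genes in 7 lists, of which 65 had a row, 18 of these under the filter on low counts, and 47 were tested. 5 of the 47 were called lower and 1 higher, beside 9.25% and 7.5% of all tested genes; that is a share near the background, and nothing is read from the call of 1 of the 5, Spock2, for a reason given with its values. DESeq2 called 11 of the 47, where it called 27.4% of all genes. All BAPN libraries were below all vehicle libraries for 8 of the 47 and above them for 3. Among all tested genes these shares were 11.9% and 12.7%. The median log2 fold change was -0.16, with 33 of 47 below 0 against 48.4% of all tested genes. Counts within the 7 lists rest on 5 to 11 genes each and are given against these same shares.

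Among 9 other core proteins that can carry heparan sulfate, 5 were tested and 2 were called lower, beside 9.25% of all tested genes. Spock2 (testican-2), a secreted proteoglycan, was at 0.67 to 1.68 CPM with BAPN and 3.86 to 7.20 CPM with vehicle (log2 fold change -2.24, SE 0.36, FDR 0.00962). It passed the filter on low counts only through the vehicle group (mean size-scaled count 182, against 38.6 with BAPN and a minimum of 100), so it could enter the test only by being high there and nothing is read from its call. Tgfbr3 (betaglycan), a co-receptor for TGF-β, was at 87.8 to 145.5 CPM and 154.5 to 261 CPM (log2 fold change -0.93, FDR 0.0199). Omitting BAPN 3, BAPN 4 or Vehicle 1 ended this call, at an FDR of 0.0542, 0.0505 and 0.0583, as did females alone (FDR 0.138). Col18a1, the basement membrane collagen that carries heparan sulfate, had a log2 fold change of -0.78 (SE 0.39, FDR 0.18), which was -0.33 without Vehicle 4 and -0.21 among females alone. Nrp1, a receptor for semaphorins and VEGF, was at -0.49 (SE 0.22, FDR 0.174) on the same scale. Nrp1 was called without BAPN 4, at -0.79 (FDR 0.033). Srgn (serglycin), a proteoglycan of the granules of blood cells, differed the other way. It was at 74.3 to 119 CPM with BAPN and 54.3 to 69.3 CPM with vehicle, with every BAPN vein above every vehicle vein, and was called by DESeq2 but not by edgeR (log2 fold change 0.54, SE 0.17, edgeR FDR 0.0545, DESeq2 FDR 0.025).

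No gene of the 11 tested for the linker and the chain polymerases was called by edgeR. Xylt1, the xylosyltransferase that begins the chain, was the 1 with an unadjusted p below 0.05 and the 1 that DESeq2 called (log2 fold change -0.65, edgeR FDR 0.075, DESeq2 FDR 0.0362). The polymerases Ext1 (-0.03, SE 0.21, FDR 0.917) and Ext2 (-0.20, SE 0.16, FDR 0.388) were not called. Ext1 was above 0 in several alternatives, up to 0.12 without Vehicle 4, where Ext2 was at -0.069.

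Of 6 tested genes for chain sulfation and epimerization, 2 fell, beside 9.25% of all tested genes. Ndst1, which starts sulfation of the chain by N-deacetylation and N-sulfation, was at 19.2, 15.6, 6.16 and 13.6 CPM in BAPN 1 to 4 and at 41.2, 24.0, 24.2 and 43.5 CPM in Vehicle 1 to 4. Hs3st1, whose 3-O-sulfation makes the antithrombin-binding site, was at 12.9, 15.0, 11.4 and 10.7 CPM with BAPN and at 34.8, 24.1, 18.1 and 29.5 CPM with vehicle. For both genes every BAPN vein was below every vehicle vein. The log2 fold changes were -1.28 (SE 0.35, FDR 0.0356) for Ndst1 and -1.09 (SE 0.21, FDR 0.0157) for Hs3st1. edgeR called Hs3st1 whichever library was omitted, but not among females alone (log2 fold change -1.17, FDR 0.0667). For Ndst1, omitting BAPN 2, BAPN 3, BAPN 4, Vehicle 1 or Vehicle 4 ended the call, at an FDR of 0.0583, 0.0545, 0.0756, 0.094 and 0.0748. A sex term in the model also ended the Ndst1 call (log2 fold change -1.28, FDR 0.0691), as did females alone (-1.25, FDR 0.167). The sulfotransferases Hs2st1 (0.11, SE 0.13, FDR 0.542; 0.027 without Vehicle 2 and 0.22 without Vehicle 4) and Hs6st1 (-0.06, SE 0.16, FDR 0.795; 0.04 without Vehicle 4), were not called.

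**Figure D3:**
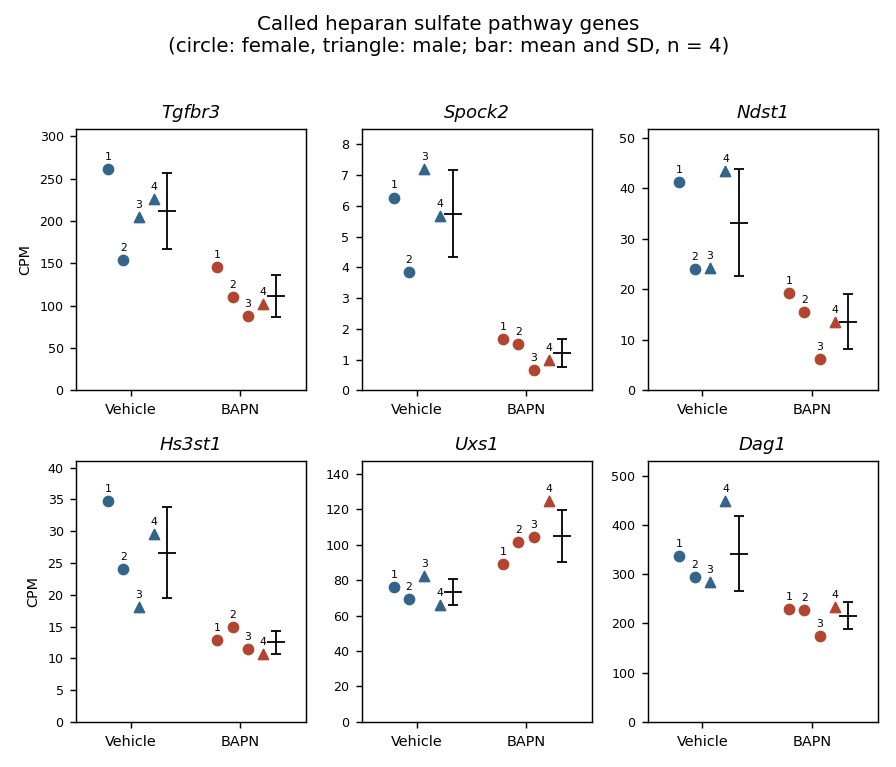
Expression in CPM (vertical axis, linear from 0) of the 6 called pathway genes in each vehicle and BAPN library, numbered by replicate, with circles for females, triangles for males and a bar for mean and SD. The groups are separate in all 6, with BAPN lower for Tgfbr3, Spock2 (which passed the filter through vehicle only), Ndst1, Hs3st1 and Dag1 and higher for Uxs1. The 6 were picked by their FDR, and 24.7% of all tested genes were separate either way.

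Among 9 tested genes that supply sulfate and sugar donors, Uxs1, which makes the UDP-xylose that starts the linker, rose from 73.5 ± 7.32 to 105 ± 14.9 CPM (SD, n = 4 in each group; log2 fold change 0.51, SE 0.13, edgeR FDR 0.0283). Omitting BAPN 2, BAPN 3, BAPN 4, Vehicle 1 or Vehicle 4 ended its call, at an FDR of 0.0522, 0.0652, 0.0656, 0.0697 and 0.0639, as did females alone (FDR 0.132). Ugdh, which makes the precursor of UDP-xylose, had a log2 fold change of 0.57 (SE 0.18, edgeR FDR 0.0555, DESeq2 FDR 0.0269), and it passed in edgeR once Vehicle 4 was omitted (FDR 0.0347). Slc26a2, a sulfate transporter, was at 4.66 to 14.7 CPM with BAPN and 17.3 to 26.7 CPM with vehicle, without overlap (log2 fold change -0.93, SE 0.33, edgeR FDR 0.0714, DESeq2 FDR 0.0246). The log2 fold change was below 0 for 5 of the 9 genes. None of the 6 tested genes for editing and shedding was called, with no unadjusted p below 0.05 and no call by DESeq2. There the sulfatase Sulf2 was at -0.39 (SE 0.18, FDR 0.151; -0.52 with an FDR of 0.0492 without Vehicle 2) and the sheddase Adam17 at 0.29 (SE 0.15, FDR 0.187) on the log2 scale. None of 5 lysosomal enzymes was called, and DESeq2 called none. Only 1, Ids, had an unadjusted p below 0.05 (log2 fold change -0.46, edgeR FDR 0.121). The log2 fold change was below 0 for 4 of the 5, and the values were -0.23 for Idua and 0.45 for Gusb. These were -0.11 without Vehicle 3 for Idua, and 0.20 without BAPN 4 and 0.066 among females alone for Gusb.

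Of 5 tested partners of the core proteins, Dag1 (dystroglycan), a receptor for agrin and perlecan, was called. It was at 229, 228, 175 and 233 CPM in BAPN 1 to 4 and at 338, 295, 285 and 450.0 CPM in Vehicle 1 to 4 (log2 fold change -0.66, SE 0.17, FDR 0.0352). All BAPN values were below all vehicle values. Of the fits that left out 1 library, those without Vehicle 2 or Vehicle 3 kept the call, and without any other library the FDR was between 0.0602 and 0.0907. A sex term in the model (FDR 0.0721), females alone (FDR 0.123) and testing with no filter on low counts (FDR 0.0528) each ended the Dag1 call. Over all alternatives other than an omitted library, the Dag1 log2 fold change was between -0.71 and -0.59. Sdcbp (syntenin), which binds the tails of syndecans, was higher in every BAPN vein, but edgeR did not call it (log2 fold change 0.35, SE 0.14, FDR 0.108, DESeq2 FDR 0.0337).

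**Figure D4:**
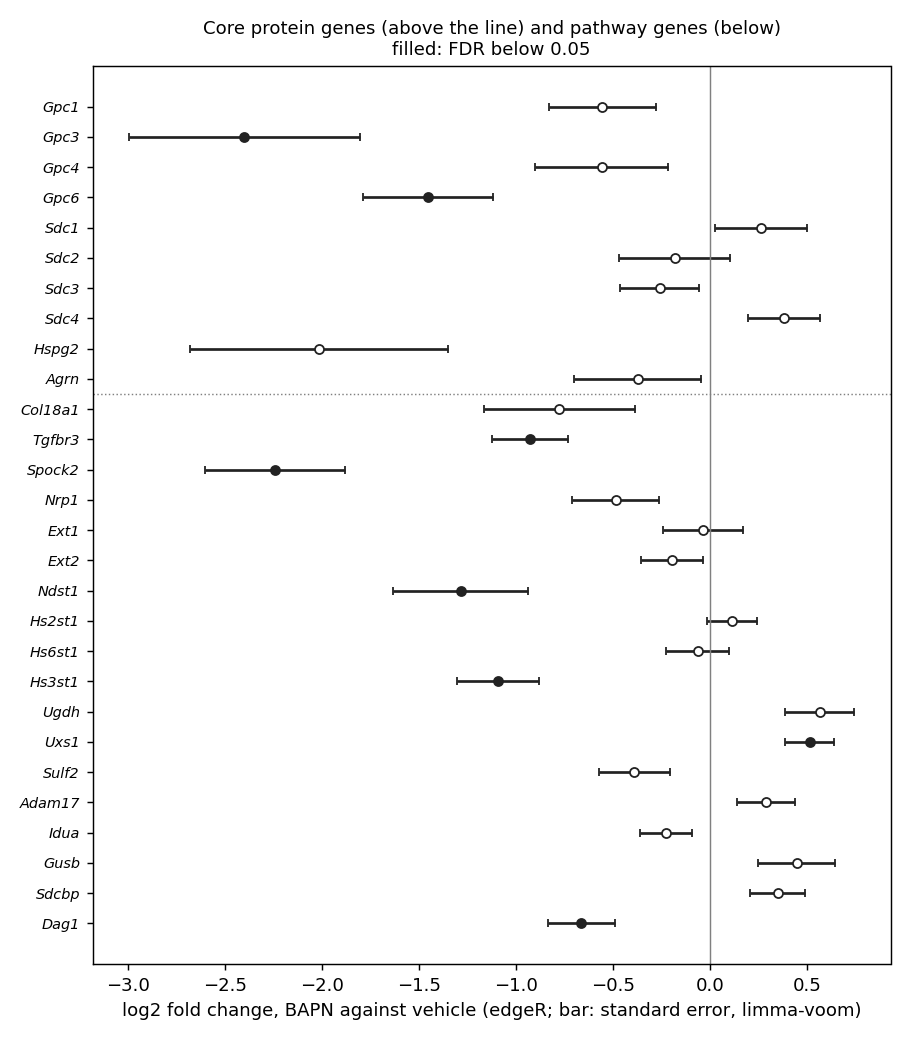
Log2 fold change of BAPN against vehicle (horizontal axis, edgeR, with the limma-voom standard error as bar) for the 10 core protein genes and the named pathway genes; filled points passed an FDR of 0.05. Gpc3, Spock2 and Hspg2 lie lowest, below -2, with Hspg2 not called.

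Markers of the cells that make these proteins also moved between the groups, and their part in the results was not tested. Counts at an unadjusted p below 0.05 stand beside 4184 of the 11682 tested genes. 6 of 8 smooth muscle markers were called lower by edgeR and 6 by DESeq2, and the list summed to 1673 to 4265 CPM with BAPN and 3346 to 6090 CPM with vehicle (highest CPM: Tagln). 3 of 7 tested endothelial markers were called lower (5 called by DESeq2), and the sum was 488 to 653 CPM and 835 to 1562 CPM (highest CPM: Tie1), with no overlap; the widely used marker Pecam1 was not analysed here. No fibroblast marker of 8 was called by edgeR, 4 had an unadjusted p below 0.05 and DESeq2 called 4 (sums of 23537 to 36828 CPM and 28657 to 95111 CPM; highest CPM: Col1a1). Macrophage markers summed to 3229.8 to 4049 CPM and 2195 to 3452 CPM (Cd68), with none of 8 called by edgeR, 1 at an unadjusted p below 0.05 and 1 called by DESeq2. T cell markers summed to 371 to 457 CPM and 301 to 511 CPM, a sum made up mostly of Cd4 (334 against 350.4 CPM on average). The other 6 T cell markers had log2 fold changes of 0.85 to 1.41, of which edgeR called Cd2 and Cd8a higher, and DESeq2 called 4 of the 7; Cd3d and Cd3g passed the filter only through the BAPN group. Adipocyte markers summed to 1097 to 2936 CPM and 489 to 1738 CPM, a sum made up mostly of Fabp4 (1690.1 against 1039.7 CPM on average). The other 4 tested adipocyte markers had log2 fold changes below 0 (Adipoq -1.61, Plin1 -2.13, Cidec -1.43 and Lipe -0.90), of which edgeR called Plin1, and DESeq2 called 4 of the 5. Keratinocyte markers summed to 9.77 to 33.5 CPM and 9.79 to 18.8 CPM (Dsp), and skeletal muscle markers to 16.1 to 29.98 CPM and 17.1 to 69.7 CPM (Tnnt3). The keratinocyte sum was 29.99 CPM in BAPN 1 and 33.5 CPM in BAPN 2, and 11.1 and 9.77 CPM in BAPN 3 and BAPN 4. Of 3 tested keratinocyte markers Dsg3 was called, but its groups overlapped and it passed the filter only through the BAPN group (mean size-scaled count 265, against 0.787 with vehicle). Neither of 2 tested skeletal muscle markers was called by edgeR, while 1 (Acta1, which passed the filter only through the vehicle group) had an unadjusted p below 0.05 and was called by DESeq2. Krt5, Krt14, Krt1, Dsg3, Tp63, Ckm, Mylpf and Lep were at 0 in at least 1 library.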

How the data were processed

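RNA was measured in 8 libraries, 1 per rat, grouped by the titles in the labels. The authors depleted ribosomal RNA, made stranded libraries and deposited whole-number read counts per Ensembl gene without normalization. The submitters' processing notes name bcl2fastq 2.17, Trim Galore and STAR. The counter, its strand setting and the genome build are not given in the sources used here, so reads of overlapping genes may be shared.

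The deposited counts were tested in genes with a base mean (mean of counts divided by DESeq2 size factors) of at least 100, the filter of the study's methods, which left 11682 of 32623 genes. edgeR 4.0.16 (TMM scaling, quasi-likelihood, a model of treatment alone) gave the calls, limma 3.58.1 (voom) the standard errors, and DESeq2 1.42.0 an alternative, in R 4.3.3. The study's methods name a DESeq plug-in. A prior count of 2 was added for log2 CPM. All 70 arrangements entered the exact permutation tests. On simulated counts for 11682 genes edgeR recovered 179 of 200 genes changed by 1.5 on the log2 scale, with 12 false calls. No 2 libraries of a group agreed within sampling noise (chi-square per degree of freedom 68.6 to 321).

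The members and gene lists were chosen with earlier results of these data known. Named were all members, pathway genes called or with the 2 highest mean CPM of their list, for each marker list its gene of highest mean CPM, and the 2 genes most correlated with each called member. Other members, clone or locus names and repeated symbols were left out of that last choice. Mzb1, Jchain, Cd2, Cd8a, Cd3d, Cd3g, Dsg3, the adipocyte markers, Acta1, Srgn, Slc26a2, Ids, Col3a1, Pecam1, Xylt1, the markers at 0 and Tnfrsf17 were named after their values were seen. 1 marker list is not reported here. Promoters came from RefSeq (GRCr8), without the bases after the start. The alternatives were each library omitted in turn, DESeq2, 3 other scalings, 2 other filters, a sex term, the females only, a replicate block and libraries thinned to 1 total.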

Additional observations from a re-analysis of the deposited data

Results flagged for a closer look

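Among the members and named pathway genes, 56 groups of 4 libraries were examined for a library far from the other 3, which chance gives in about 1 of 20 groups, and 4 were found. In Vehicle 4, Gpc1 was at 367 CPM against 161 to 178 CPM in the other vehicle veins (gap 0.917 of the range), and Sdc2 was at 577 CPM against 239.6 to 267 CPM (gap 0.919 of the range). In BAPN 1, Sdc4 was at 78.7 CPM, below the 119 to 125 CPM of the other BAPN veins (gap 0.872 of the range). In BAPN 3, Dag1 was at 175 CPM against 228 to 233 CPM (gap 0.903 of the range).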

How the results depend on the processing

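Among the 10 members, the log2 fold changes of Gpc1, Gpc3, Gpc4, Gpc6, Sdc3, Sdc4, Hspg2 and Agrn kept their direction under every alternative run. The differences of Gpc4 and Agrn all but vanished among females alone, at -0.011 and -0.0024. Among females alone Sdc1 turned to -0.015, Sdc2 to 0.18 and Ext1 to 0.031, and Ext1 was 0.0019 with the replicate block. With a library left out Sdc2 ranged from -0.31 to 0.21, Hs6st1 from -0.19 to 0.039 and Ext1 from -0.17 to 0.12, each highest and above 0 when Vehicle 4 was omitted; Ext1 was also above 0 when BAPN 3 (0.016), BAPN 4 (0.01) or Vehicle 1 (0.045) was omitted. The 2 members called lower were 1 among females alone, 0 with the replicate block and 0 to 2 with a library left out (0 without BAPN 3 or BAPN 4), and those called higher were 0 throughout. The 5 pathway genes called lower were 3 with sex as a covariate, 0 among females alone and 2 to 7 with a library left out. The 1 called higher was 4 in DESeq2, 3 with thinned totals, 0 among females alone, 0 with the replicate block and 0 to 1 with a library left out. The 1957 calls among all tested genes were 3202 in DESeq2, 930 with sex as a covariate, 89 among females alone, 556 with the replicate block and 397 (without Vehicle 1) to 2215 (without Vehicle 2) with a library left out.

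Same-numbered libraries deviated from their group means with correlations of 0.094, -0.26, 0.27 and -0.14. These correlations are too few to decide whether the replicate numbers pair the rats. With the replicate block Gpc3 had an FDR of 0.0652, Gpc6 of 0.0532, Dag1 of 0.0597 and Uxs1 of 0.0856, so none of these calls was kept. The cause of these losses was not tested. At these depths every member had at least 173 counts in each library.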
